A study of Mus musculus with 12 samples.

Results

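The step from the marrow progenitor to the first T cell precursor was described by comparing 3 DNase-seq libraries of LSK cells with 2 libraries of DN1 cells, out of 12 libraries in the series. DNase-seq marks places where DNase I cuts the chromatin, and each such place was called by the authors as a peak, a DNase I hypersensitive site (DHS). The 5 peak lists on chromosomes 1 to 19 and X were merged where peaks overlapped by at least 1 bp, which gave 117539 merged DHSs. A DHS was taken as gained when both DN1 lists and no LSK list held a peak in it, and as lost when all 3 LSK lists and no DN1 list did. By that definition 13314 DHSs (11.3% of the merged DHSs) were gained and 2010 (1.71%) were lost, while 32952 were shared by all 5 lists.

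LSK cells were lineage-negative, SCA1+ KIT+ haematopoietic stem and progenitor cells, freshly isolated from the marrow of C57BL/6J (Ly5.2) mice. DN1 cells were KIT++ CD44+ CD25- cells sorted from LSK cultures on immobilized Delta1ext-IgG, a Notch ligand at high density, with Retronectin, SCF, FLT-3 ligand, IL-6 and IL-11, and without IL-7. The day of the DN1 harvest is not given in the sources used here. DN1 libraries therefore differed from LSK libraries in culture as well as in ligand, and these cannot be told apart in this comparison. The other libraries bear on it from outside. DN2a and DN2b cells (2 libraries each) are the next precursors from the Delta1 culture, with IL-7 added, and the IgG group (3 libraries) was LSK cells cultured on human IgG1 with no Notch ligand.

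As background, Notch is a cell surface receptor whose intracellular part is cut free when ligand binds, enters the nucleus, joins the DNA-binding protein RBPJ and a Mastermind cofactor, and turns on genes such as Hes1, Dtx1 and Nrarp. In the thymus this signal directs progenitors into the T lineage, and Tcf7, Gata3 and Bcl11b, which encode transcription factors, are among the genes through which it acts. RUNX, PU.1, GATA, C/EBP and TCF1 proteins bind short DNA words in distal DHSs of blood cells, and different lineages use different ones of them.

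Before the counts, 12 distal DHSs show what was gained and lost at the level of sequence. The Zfp36l2, Cntn1, Pik3r1 and Fstl4 sites are among the 8 gained distal DHSs with the highest peak scores, the Dtx1, Tcf7, Gata3 and Meis1 sites are gained DHSs beside Notch target, T lineage or progenitor genes, and the last 4 are lost sites of the same 2 kinds. The Tcf7 and Gata3 sites were gained in the deposited lists only, and the other 10 changed under both list lengths. Sequences are of the GRCm38 plus strand (mm10), 5′ to 3′, with capitals for matches to any of 13 motif words on either strand.
Zfp36l2 side, chr17:84116617-84116826: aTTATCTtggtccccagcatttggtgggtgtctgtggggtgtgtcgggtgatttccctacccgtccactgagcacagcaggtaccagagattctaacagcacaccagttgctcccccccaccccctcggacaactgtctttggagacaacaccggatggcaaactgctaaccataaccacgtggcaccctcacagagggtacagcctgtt
Cntn1 intron, chr15:92134397-92134566: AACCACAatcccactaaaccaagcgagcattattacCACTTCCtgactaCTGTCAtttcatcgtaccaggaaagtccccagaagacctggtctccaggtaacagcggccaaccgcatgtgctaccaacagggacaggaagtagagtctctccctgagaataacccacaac
Pik3r1 side, chr13:102070897-102071046: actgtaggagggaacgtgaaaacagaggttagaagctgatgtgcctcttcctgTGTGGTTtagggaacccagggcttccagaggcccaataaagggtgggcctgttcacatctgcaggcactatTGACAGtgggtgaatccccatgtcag
Fstl4 intron, chr11:53054297-53054466: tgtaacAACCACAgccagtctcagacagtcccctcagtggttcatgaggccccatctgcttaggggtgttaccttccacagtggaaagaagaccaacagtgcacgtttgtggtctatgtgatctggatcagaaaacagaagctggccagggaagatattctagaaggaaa
Dtx1 intron, chr5:120685777-120685966: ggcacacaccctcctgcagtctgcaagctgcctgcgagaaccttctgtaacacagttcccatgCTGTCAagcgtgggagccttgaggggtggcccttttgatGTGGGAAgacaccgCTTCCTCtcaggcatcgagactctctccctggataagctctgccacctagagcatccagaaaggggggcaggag
Tcf7 upstream, chr11:52309497-52309726: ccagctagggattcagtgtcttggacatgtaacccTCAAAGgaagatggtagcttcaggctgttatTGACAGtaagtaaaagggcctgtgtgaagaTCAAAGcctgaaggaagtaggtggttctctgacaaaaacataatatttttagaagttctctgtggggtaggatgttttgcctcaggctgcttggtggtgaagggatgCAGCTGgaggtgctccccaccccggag
Gata3 upstream, chr2:9946877-9947026: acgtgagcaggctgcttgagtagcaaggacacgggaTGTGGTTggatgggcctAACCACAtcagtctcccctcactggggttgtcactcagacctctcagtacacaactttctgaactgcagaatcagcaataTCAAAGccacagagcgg
Meis1 intron, chr11:18996897-18997066: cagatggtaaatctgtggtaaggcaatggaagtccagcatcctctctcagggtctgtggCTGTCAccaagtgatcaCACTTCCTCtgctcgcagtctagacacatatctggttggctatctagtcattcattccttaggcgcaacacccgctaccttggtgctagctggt
Galnt6 side, chr15:100738497-100738666: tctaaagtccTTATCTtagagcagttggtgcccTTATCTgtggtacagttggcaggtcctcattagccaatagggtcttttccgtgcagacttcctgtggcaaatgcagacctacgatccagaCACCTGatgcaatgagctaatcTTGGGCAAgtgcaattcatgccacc
Nek6 intron, chr2:38533377-38533546: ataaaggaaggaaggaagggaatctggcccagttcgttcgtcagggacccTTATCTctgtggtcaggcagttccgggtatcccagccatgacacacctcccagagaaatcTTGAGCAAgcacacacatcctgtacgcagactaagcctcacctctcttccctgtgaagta
Gata2 upstream, chr6:88166157-88166366: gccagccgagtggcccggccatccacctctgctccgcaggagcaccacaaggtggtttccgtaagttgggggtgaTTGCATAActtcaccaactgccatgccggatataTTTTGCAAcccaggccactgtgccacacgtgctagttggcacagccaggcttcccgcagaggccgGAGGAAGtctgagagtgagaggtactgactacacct
Slc46a3 side, chr5:147918297-147918506: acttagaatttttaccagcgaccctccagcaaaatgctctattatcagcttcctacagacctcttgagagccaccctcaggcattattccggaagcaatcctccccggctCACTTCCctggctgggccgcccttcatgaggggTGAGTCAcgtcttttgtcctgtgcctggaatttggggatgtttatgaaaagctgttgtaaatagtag

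The capitals in the gained sites mark a GATA word beside Zfp36l2, RUNX, ETS and MEIS words in the Cntn1 intron, RUNX and MEIS words in the Pik3r1 site, a RUNX word in the Fstl4 intron, and RBPJ, PU.1 and MEIS words in the Dtx1 intron. The Tcf7 upstream site held TCF1/LEF1, MEIS and E-box words and the Gata3 site held RUNX and TCF1/LEF1 words. In the lost sites the capitals mark GATA and C/EBP words beside Galnt6 (with an E-box word) and in the Nek6 intron, C/EBP and PU.1 words upstream of Gata2, and AP-1 and ETS words beside Slc46a3. The Meis1 intron held MEIS, PU.1 and ETS words. A match describes the letters only and does not show that a factor was bound.

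The numbers of gained and lost DHSs differed with the length of the lists compared. Why list lengths differed was not tested. LSK lists held 53869, 54544 and 62377 peaks and DN1 lists 96436 and 69391, so both DN1 lists were longer than every LSK list. The means were 56930 ± 4729 (SD, n = 3) and 82914 ± 19124 (SD, n = 2), and with 10 divisions of the libraries the two-sided exact permutation test gave p = 0.1, its lowest possible value. Read depth is unknown, because the files hold peaks and no read totals. The comparison was therefore repeated with the 32952 highest-scoring peaks of each list, the length of the shortest of the 12 lists. That this equals the number of shared DHSs is a coincidence of the data. Of the 50224 merged DHSs at equal length, 4337 (8.64%) were gained and 3361 (6.69%) were lost.

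The large excess of gains over losses in the deposited lists was thus mostly absent at equal list lengths. Of the 4337 gains at equal length, 2197 (50.7%) had a lower-scoring LSK peak in the deposited lists, and of the 3361 losses 2719 (80.9%) had a lower-scoring DN1 peak. DHSs that were gained or lost under both list lengths numbered 2140 (1.82% of the merged DHSs) and 642 (0.546%). These stood on the strictest footing and the items named below come from them unless stated. Just outside the definition, 6491 DHSs had a peak in both DN1 lists and 1 LSK list, and 3755 in all 3 LSK lists and 1 DN1 list. DN1 replicate 1 alone held 22541 DHSs found in no other of the 5 lists. Without DN1 replicate 2 the gained DHSs numbered 35946, and without DN1 replicate 1 the lost DHSs numbered 5450.

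**Figure D1:**
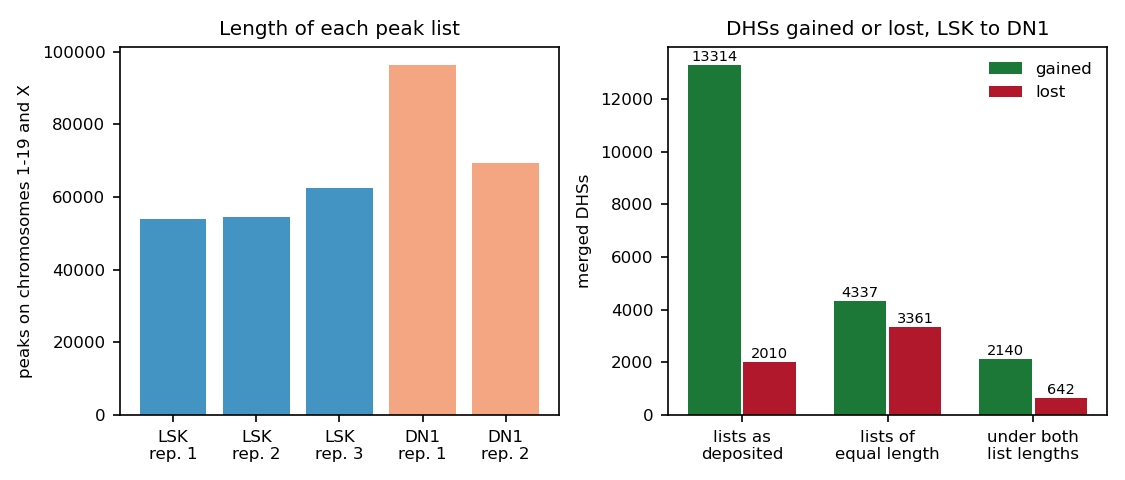
Left, bars give the number of peaks on chromosomes 1 to 19 and X in each LSK and DN1 library. Right, bars give merged DHSs gained (green) and lost (red) with the lists as deposited, with lists of equal length, and under both. Gains outnumber losses 13314 to 2010 in the deposited lists and 4337 to 3361 at equal length.

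Gained and lost DHSs lay away from promoters. A DHS was called a promoter DHS when its midpoint fell no more than 1 kb from a protein-coding start site, and 9.22% of gained DHSs (95% Wilson interval 8.74% to 9.73%) and 11.5% of lost ones (10.2% to 13.0%) lay there, against 31.7% (31.2% to 32.2%) of the shared DHSs and 18.7% of all merged DHSs. At equal list lengths the shares were 9.66% for gained, 14.8% for lost and 45.5% for shared. Introns held 46.0% of the gained and 41.7% of the lost DHSs, and intergenic DNA 34.7% and 34.3%. The median distance to the nearest start site was 29.2 kb for gained, 34.6 kb for lost and 9.76 kb for shared DHSs. Intervals here cover counting error only, and DHSs of 1 set come from the same libraries.

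**Figure D2:**
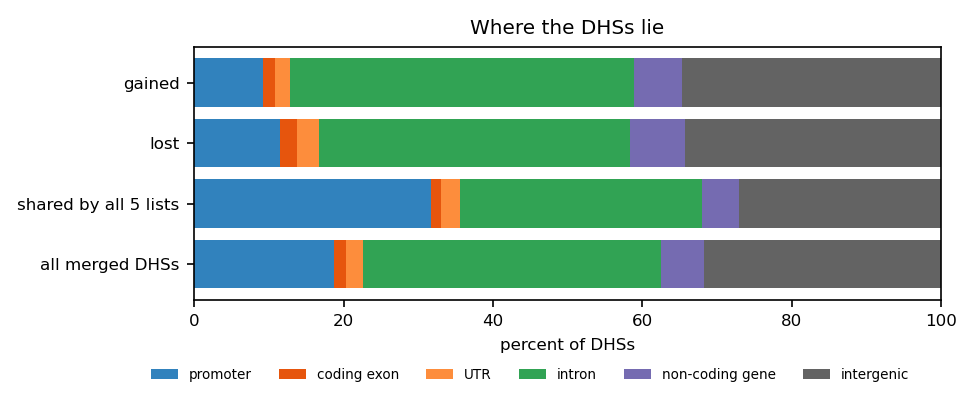
Bars give the percent of DHSs by location, for gained, lost and shared DHSs and for all merged DHSs of the 5 deposited lists. Promoters take 9.22% of the gained, 11.5% of the lost and 31.7% of the shared DHSs.

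At the level of genes, 252 of 21755 promoters (1.16%) were gained and 154 (0.708%) were lost with the deposited lists. At equal lengths the balance turned, with 121 gained (0.556%) and 371 lost (1.71%). Under both lengths 49 promoters were gained (0.225%) and 47 lost (0.216%). Gained promoters were poor in CpG. Their observed/expected CpG ratio, the CpG count relative to that predicted from C and G content over 2 kb, was 0.350 ± 0.226 (SD, n = 252), lost promoters had 0.480 ± 0.180 (SD, n = 154), promoters open in all 5 lists 0.624 ± 0.174 (SD, n = 9863) and promoters closed in all of them 0.262 ± 0.187 (SD, n = 8994). The gained set lay between the closed and the open sets and below the lost set, also under both list lengths (0.322 ± 0.206 for 49 promoters against 0.474 ± 0.182 for 47).

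The 11 gained promoters with the highest peak scores had varied known roles. Scores are given as the percentile of the peak among all peaks of its library, where 100 is the strongest. The promoter DHS of Degs2, a sphingolipid enzyme, stood at 89.8 and 91.5 in DN1 replicates 1 and 2, with no peak in any LSK library, and was present in 4 of 4 DN2 and 1 of 3 IgG libraries. Siglech, a surface receptor of plasmacytoid dendritic cells, stood at 86.3 and 86.9 in DN1 and at lower percentiles, from 8.85 to 56.2, in the DN2 libraries. These percentiles come from lists of different lengths.

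Lbhd1 and Gm49403 overlap and share 1 peak, at 89.1 and 88.7 in DN1, so their promoters count as 2 but rest on 1 DHS. Pik3r6, a regulatory subunit of phosphoinositide 3-kinase gamma, stood at 93.5 and 82.5 in DN1. The promoters of Cdc20b, Psd, Mex3a, Bri3bp, Rtn2 and Pidd1 completed the list, with DN1 means from 78.5 (Pidd1) to 83.7 (Cdc20b). Of the 11, 9 had a peak in all 4 DN2 libraries. Psd and Pidd1 had one in 2 of 4.

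Of the 12 lost promoters none was open in all later libraries except that of Csrnp1. Nr4a1, which encodes an orphan nuclear receptor induced early after stimulation, stood at 85.9, 75.1 and 84.7 in the LSK libraries and had no DN1 peak, with a peak in 1 of 4 DN2 and none of the IgG libraries. Csrnp1, which encodes a nuclear protein, stood at 84.2, 76.0 and 89.3 in LSK, at a DHS 806 bp into the gene. The Csrnp1 promoter had a peak in 4 of 4 DN2 and in 3 of 3 IgG libraries, so that DN1 was the only group without one. Those peaks lay within 1 kb of the start site and need not be in the same DHS. The promoter of Fhit stood at 82.4, 84.0 and 87.3 in LSK and had no peak in any of the 9 cultured libraries, and the same held for Fbxo16 and Flywch2. Rec8, the meiotic cohesin subunit, stood at 86.4, 80.6 and 85.8 in LSK, was absent in DN1 and was open in 3 of 4 DN2 libraries. Nkx2-3 and Lbx1 encode homeobox factors and had LSK means of 76.9 ± 3.34 and 77.6 ± 6.59 (SD, n = 3). The other 4 were Morn4, Ccl27a, Nim1k and Efcab12, with LSK means between 74.7 and 84.9.

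**Figure D3:**
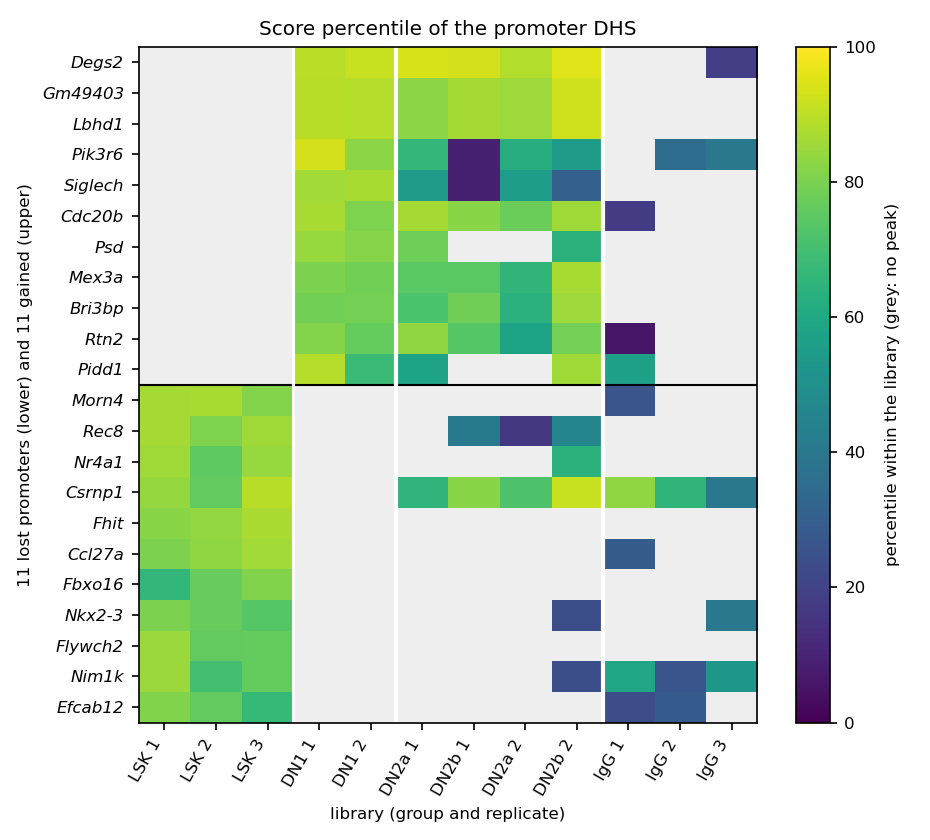
Colour gives the score percentile of the promoter DHS in each of the 12 libraries (columns, by group and replicate) for the first 11 gained (upper) and 11 lost (lower) promoters by score, grey where the library has no peak. Siglech lies between 8.85 and 56.2 in the DN2 libraries and at 86.3 and 86.9 in DN1, while Csrnp1 is open in every group but DN1.

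Few changes were seen at the promoters of Notch pathway genes, as at promoters in general. Of 22 genes for receptors, ligands, RBPJ, Mastermind proteins, fringe enzymes, secretases and regulators, 0 promoters were gained and 0 lost (against 1.16% and 0.708% of all promoters), with 12 open in all 5 lists, 6 closed in all and 4 mixed. At equal lengths 1 was lost, that of the ligand gene Jag1, which had a peak at 62.0 in DN1 replicate 1 of the deposited lists. Of 198 DHSs nearest to these genes within 100 kb, 20 (10.1%) were gained and 6 (3.03%) lost, beside 10.9% and 1.53% of all DHSs near a start site. The gained ones included an intronic DHS of Maml1, a Mastermind cofactor, at chr11:50280197-50280346 with percentiles of 80.4 and 77.0, and an intronic DHS of Rbpj at chr5:53490877-53491046 with 82.6 and 75.4. Both were present in 4 of 4 DN2 libraries, and the Rbpj site also in 2 of 3 IgG libraries. An intronic DHS of Notch1, the receptor of early T cell development, was gained at chr2:26502317-26502486 with 52.2 and 40.7 in the deposited lists only, and held an RBPJ word.

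Among 18 Notch target genes, the promoters of Tcf7 and Ccnd3 were gained and none was lost, beside 1.16% and 0.708% of all promoters. The promoter DHS of Tcf7, which encodes TCF1, stood at 43.6 and 45.2 in DN1 and at 54.3 to 73.0 in DN2, with no LSK or IgG peak. Ccnd3, the D-type cyclin of thymocytes, stood at 59.4 and 58.6. Both were gained with the deposited lists and not at equal lengths. The strongest gained DHS beside a target gene was the one printed above in the intron of Dtx1, a ubiquitin ligase of the pathway, 26.1 kb inside the gene at percentiles of 89.4 and 93.2. It was found in 4 of 4 DN2 and 0 of 3 IgG libraries. Of 165 DHSs near target genes 22 (13.3%) were gained and 2 (1.21%) lost, near the 10.9% and 1.53% of all DHSs near a start site. Both lost ones, near Hes1 and Hes5, were lost under both list lengths (1.21%, beside 0.514%), under which 3 were gained (1.82%, beside 1.81%).

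Hes1, the classical Notch-induced repressor, was open at its start site in every library and moved in rank. In the equal-length lists a DHS 838 bp inside the gene stood at 19.6, 26.2 and 32.4 in LSK and at 94.4 and 95.9 in DN1, without overlap between the groups. The neighbouring DHS, at -122 bp from the start site, stood at 76.9, 79.9 and 79.7 in LSK and lower, at 66.9 and 73.3, in DN1. The 2 DHSs of this promoter therefore moved in opposite directions. The strongest Hes1 promoter peak of each library, by percentile of the deposited list, was at 94.5 to 98.4 in the 4 DN2 libraries and at 26.6, 17.0 and 37.6 in IgG. At Hey1, a related repressor, the promoter DHS stood at 32.3, 8.35 and 6.77 in LSK and at 57.4 and 51.6 in DN1 at equal lengths, and at Nrarp, a feedback inhibitor of Notch, at 51.1, 57.3 and 58.1 against 63.6 and 67.9. Both were higher in each DN1 library than in every LSK library. Of the 19007 DHSs shared by all 5 equal-length lists, 3798 (20%) were higher in both DN1 libraries than in every LSK library and 4878 (25.7%) lower. Among the 8647 promoter DHSs of these, 1364 (15.8%) were higher and 2072 (24.0%) lower, which is the background for these promoters.

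T lineage promoters were gained at DN1 in part. Of 25 T lineage genes, 5 promoters were gained, among them Tcf7, Rag1, Cd2 and Cd27, and none was lost, beside 1.16% of all promoters. None of these 4 was gained at equal lengths, where 3 promoters of the list were gained, beside 0.556% of all promoters. Promoters of this list were open in 7, 6 and 4 genes in LSK and in 13 and 11 in DN1, and at equal lengths in 3, 4 and 1 against 6 and 9. The counts did not overlap in either case. Over all 21755 promoters the open ones numbered 11109, 11087 and 11427 in LSK and 11885 and 10915 in DN1, and at equal lengths 10030, 9895 and 9822 against 9448 and 9375. Rag1, the recombinase that cuts receptor genes, stood at 29.4 and 53.4 in DN1. Cd2, an adhesion receptor, stood at 56.6 and 64.6 and Cd27, a costimulatory receptor, at 35.7 and 42.9. Bcl11b, the factor of T cell commitment, had weak LSK peaks at 27.3, 6.12 and 21.3 and stronger DN1 peaks at 69.7 and 61.8, and counted as gained only at equal lengths. The same held for Cd7, a surface receptor of early T and NK cells, at 24.2, 25.6 and no peak in LSK and 80.4 and 81.3 in DN1. The promoter of Il7r, the IL-7 receptor alpha chain, stood at 38.6, 53.5 and 42.0 in LSK and at 90.8 and 92.9 in DN1, and at equal lengths it had a peak in 2 LSK libraries and both DN1 libraries. These percentiles are of deposited lists, in which the DHSs shared by all 5 had medians of 66.4, 67.6 and 71.6 in LSK and 80.4 and 71.7 in DN1. The promoters of Gata3, Cd3e, Cd3d, Cd3g, Ptcra and Zap70 had no peak in any LSK or DN1 library.

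Distal DHSs were gained also beside T lineage genes whose promoters had no peak in LSK or DN1. Of 186 DHSs nearest to the 25 genes, 34 (18.3%) were gained and 3 (1.61%) lost, beside 10.9% and 1.53% of all DHSs near a start site. Under both list lengths 6 were gained (3.23%, beside 1.81%) and 1 lost. That share was not particular to the T lineage list, with 5.75% near dendritic and macrophage, 4.23% near B lineage, 3.94% near NK and innate lymphoid and 3.40% near myeloid genes. A DHS 11.3 kb downstream of the Cd3e start site, past the end of the gene at chr9:44998217-44998366, stood at 87.6 and 87.8 in DN1. Cd3e itself, a chain of the T cell receptor complex, had a promoter peak in 4 of 4 DN2 libraries and none in LSK, DN1 or IgG. At Il2ra, which encodes CD25, a DHS 6.57 kb upstream (chr2:11636157-11636326) stood at 68.8 and 53.4 in DN1. Its promoter was closed in all LSK and DN1 libraries and stood at 84.7 to 93.0 in DN2. Both genes thus had a distal DHS gained at DN1 and a promoter DHS not before DN2. Distal opening did not begin at DN1 at Il2ra, where 3 of the 7 assigned DHSs were shared by all 5 lists. At Cd3e 0 of 4 were shared. DN1 cells were sorted without CD25 and DN2 cells with it, so the promoter order at Il2ra is not independent of the sort. Upstream of Gata3 the site printed above stood at 59.4 and 55.2 in the deposited lists only. The Gata3 promoter had a peak in 1 of 4 DN2 libraries. At Zap70, the kinase of the T cell receptor, 5 of the 14 DHSs assigned to it were gained and 1 was lost, the strongest gained one at 85.4 and 56.9. The Zap70 promoter had no peak in any of the 12 libraries.

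Progenitor genes both gained and lost DHSs. Of 26 genes of the stem and progenitor list, 1 promoter was gained (Erg, at 16.1 and 25.05, deposited lists only) and 1 was lost, beside 1.16% and 0.708% of all promoters. The lost one was Hoxa5, a homeobox gene of the HoxA cluster, at 72.4, 47.0 and 71.6 in LSK and without a peak in DN1 and DN2. It stood at 79.2, 72.0 and 72.6 in the IgG libraries. Hoxa5 was therefore open in every library without Delta1 and in no library with it. Promoters of the list were open in 16, 17 and 18 genes in LSK and 17 and 15 in DN1, and at equal lengths in 16, 15 and 16 against 13 and 12. Open promoters over all genes were also fewer in DN1 at equal lengths, at 10030, 9895 and 9822 against 9448 and 9375. Hlf, a transcription factor of stem cells, stood at 70.1, 79.2 and 82.9 in LSK and at 55.2 and 22.4 in DN1, and was lost only at equal lengths. Of 212 DHSs near these genes, 29 (13.7%) were gained and 7 (3.30%) lost, beside 10.9% and 1.53% of all DHSs near a start site. Under both lengths 6 were gained (2.83%, beside 1.81%) and 4 lost (1.89%, beside 0.514%). The Gata2 upstream DHS printed above, 27.6 kb from the gene, stood at 65.0, 51.4 and 76.3 in LSK and was present in 3 of 3 IgG and 0 of 4 DN2 libraries. A DHS 51.2 kb upstream of Lmo2, a haematopoietic cofactor, stood at 75.5, 72.2 and 77.1 in LSK and was present in 3 of 3 IgG and 2 of 4 DN2 libraries. The strongest gained DHS of this list was the Meis1 intronic site printed above, at 87.6 and 92.2 in DN1 and present in 4 of 4 DN2 libraries. Meis1 encodes a homeobox factor of stem cells, and its promoter was open in all 5 lists.

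Genes of other lineages were checked in the same way, since sorted or cultured cells can hold other cell types. Mast cell and basophil genes had open promoters in 2, 3 and 3 of 14 genes in LSK and in 6 and 5 in DN1, with the promoters of Mcpt8 (a basophil protease) and Il1rl1 (the IL-33 receptor) gained in the deposited lists only and 15 of 66 nearby DHSs (22.7%) gained, beside 1.16% of all promoters and 10.9% of all DHSs near a start site. Dendritic and macrophage genes had 7, 7 and 7 of 14 open in LSK and 9 and 8 in DN1, with Siglech gained under both list lengths and Batf3 in the deposited lists only, and NK and innate lymphoid genes 8, 7 and 6 of 15 against 11 and 11, with Eomes and Gzma gained in the deposited lists only. Of the DHSs near dendritic and macrophage genes 14 of 87 (16.1%) were gained, of those near NK and innate lymphoid genes 21 of 127 (16.5%), near myeloid genes 21 of 147 (14.3%), near AP-1 family genes 19 of 161 (11.8%), near B lineage genes 8 of 71 (11.3%) and near erythroid and megakaryocyte genes 6 of 102 (5.88%). Itgax, an integrin of dendritic cells, and Klrd1, an NK cell receptor, were gained at equal lengths only. At equal lengths the mast cell counts were 1, 1 and 2 against 2 and 2 and the NK and innate lymphoid counts 4, 3 and 3 against 4 and 5, and neither separated the groups any longer. The dendritic and macrophage counts were 5, 5 and 5 against 6 and 8, higher in DN1, while open promoters over all genes were fewer in DN1 (10030, 9895 and 9822 against 9448 and 9375). Myeloid genes had 12, 12 and 8 of 24 open against 11 and 11, B lineage genes 5, 5 and 5 of 14 against 6 and 4, and erythroid and megakaryocyte genes 9, 9 and 9 of 15 against 10 and 8, all overlapping, as did the open promoters of all genes in the deposited lists (11109, 11087 and 11427 against 11885 and 10915). At equal lengths the erythroid and megakaryocyte counts were 8, 9 and 8 against 6 and 5, with Gp1ba and Gp9 (platelet receptor chains) lost, and the B lineage counts 5, 5 and 4 against 3 and 3, with Ebf1 (a B cell transcription factor) lost. Both were lower in DN1 without overlap, in the direction of all promoters, and the myeloid counts were 7, 9 and 6 against 8 and 7. Among defining genes, the promoters of Mpo, Elane, Csf1r and Cebpe (myeloid), Ms4a2, Fcer1a and Hdc (mast cell), Gata1 (erythroid), Pax5 and Cd79a (B cell), Ncr1 (NK cell) and C1qa (macrophage) had no peak in any of the 5 libraries. Those of Cebpa and Lyz2, Cpa3, Epor, Itga2b and Pf4, Ebf1 and Vpreb1, Id2 and Zbtb16, and H2-Ab1 and Itgax, of the same lineages in that order, had one in all 5. AP-1 family genes, which encode factors induced by stimulation, had 10, 10 and 10 of 13 open against 12 and 12, with Batf and Batf3 gained in the deposited lists only. At equal lengths these counts were 10, 10 and 10 against 9 and 10, with no promoter gained and that of Fosl1 lost. What part such cells have in the gains was not tested. Of the genes used to sort, Kit and Cd44 had open promoters in all 5 lists and Il2ra in none, while Ly6a, which encodes SCA1, had no peak within 1 kb of its start in any library, LSK included.

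Some genes gathered several changed DHSs. Gained DHSs lay nearest to 6600 of 18003 genes with a DHS within 100 kb (36.7%), and under both list lengths to 1511 (8.39%). Zfp217, a zinc finger transcriptional regulator, had the most under both lengths, with 7 (9 as deposited) of 36 DHSs. Zfp36l2, an RNA-binding protein that destabilizes mRNA, had 5 of 43. Genes with 4 were Itgb3 (integrin beta 3, whose promoter was also gained), Ptprc (the CD45 phosphatase), S1pr1 (the receptor for lymphocyte egress), Ubash3b (a phosphatase that restrains receptor signalling), Nrip1, Afdn, Slc16a6, Smu1 and, tied with Smu1, Tspoap1. Lost DHSs were thinner, nearest to 1348 genes (7.49%) and under both lengths to 473 (2.63%). Tfcp2l1, Nanos3, Nek6 and Plxnc1 each lost 3 under both lengths. Edn2, Trpc6, Coro2b, Stxbp4 and Sfi1 lost 2 each, many further genes also 2, and the Sfi1 window held 99 DHSs in all. The nearest gene is a label of position and need not be the gene a DHS acts on.

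The strongest gained distal DHSs were retained in the later precursors. The Zfp36l2 site, 71.2 kb from that gene, stood at 99.7 and 98.4 in DN1 and was the strongest of all. The next were a site 37.7 kb from Kpna2 (98.3 and 97.9), 254 kb upstream of Nfe2l3 (98.3 and 95.9), in the Cntn1 intron (95.1 and 97.1), 303 kb upstream of Pik3r1 (96.0 and 96.2), in a Cux1 intron (97.4 and 93.5), in an intron of the Ccl1 gene record (95.8 and 94.97) and in the Fstl4 intron (95.1 and 95.5). All 8 had a peak in 4 of 4 DN2 libraries. The Nfe2l3 site also had one in 2 and the Cux1 site in 1 of 3 IgG libraries, and the other 6 in none.

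Of the 8 strongest lost distal DHSs, 6 had no peak in any DN2 library. The Galnt6 site, 9.21 kb upstream of that gene, stood at 97.0, 91.8 and 96.1 in LSK and was present in 3 of 3 IgG and 0 of 4 DN2 libraries. The Gramd1b intronic site had the same pattern, at 91.0, 93.2 and 88.3. The sites beside Slc46a3 (92.2, 76.9 and 94.1), Zfp236 (92.9, 91.8 and 88.3), Egfl7 (92.2, 91.4 and 89.3) and in the Rhof record (90.6, 67.6 and 92.1) had no peak in any DN2 or IgG library. The Nek6 intronic site (94.0, 95.1 and 97.7) and the Nanos3 site (89.8, 92.5 and 90.5) had one in 2 of 4 DN2 libraries, and the Nanos3 site also in 1 of 3 IgG libraries.

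DNA words differed between gained and lost distal DHSs. Words were counted on both strands in the central 150 bp of each DHS beyond 1 kb of a start site, with 12086 gained, 1779 lost and 22495 shared DHSs. The RUNX word TGTGGTT was in 21.1% of gained (95% Wilson interval 20.4% to 21.8%), 8.32% of lost and 11.5% of shared DHSs, and in 12.4% of all distal DHSs. Under both list lengths it was in 27.3% of gained and 6.24% of lost DHSs. The TCF1/LEF1 word CTTTGA was in 14.6% of gained, 7.87% of lost, 9.43% of shared and 11.1% of all. The PU.1 word GAGGAAG was in 21.8%, 15.2%, 18.4% and 17.4%, and the RBPJ word GTGGGAA, which Notch complexes bind, in 4.81%, 2.75%, 3.36% and 3.54%. These 4 words were commoner in gained than in lost DHSs.

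The reverse held for others. The C/EBP word TTGCNNAA was in 5.25% of gained, 12.1% of lost, 6.87% of shared and 6.63% of all distal DHSs, the GATA word AGATAA in 9.34%, 11.3%, 6.93% and 9.06%, and the AP-1 word TGANTCA in 7.21%, 10.3%, 8.35% and 8.17%. The ETS word GGAAGTG (15.1%, 13.4%, 14.0% and 12.4%), which can overlap the PU.1 word, and the E-box word CAGCTG (13.1%, 14.7%, 12.6% and 11.9%) differed by less than 2 points between gained and lost DHSs. The MEIS word TGACAG was in 15.2% of gained, 13.6% of lost, 12.7% of shared and 13.3% of all distal DHSs. The second E-box word, CAGGTG, was in 12.3% of gained, 9.95% of lost, 12% of shared and 11.5% of all distal DHSs. The GC box word GGGCGGG (SP/KLF) was in 1.99% of gained, 4.61% of lost, 6.05% of shared and 3.63% of all distal DHSs and the CTCF core AGGGGGC in 2.87% of gained, 3.88% of lost, 9.1% of shared and 5.86% of all distal DHSs, both lowest in the gained set. Gained DHSs had a lower GC content (48.4%) than lost (50.9%) and shared ones (51.6%). Within each of 4 bins of GC content from 30% to 70%, RUNX and TCF1/LEF1 words were commoner in gained than in lost DHSs and C/EBP words less common, for example 24.8% against 9.31% for RUNX and 5.72% against 16.9% for C/EBP between 40% and 50% GC. Among gained DHSs the RUNX share was 16.7% in the 3022 with the lowest DN1 scores and 26.4% in the 3022 with the highest.

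Both sets were then read in libraries that the definition did not use. Of the 13314 gained DHSs, 53.3%, 41.2%, 40.9% and 65.1% had a peak in DN2a replicate 1, DN2b replicate 1, DN2a replicate 2 and DN2b replicate 2, and 6.29%, 6.32% and 8.56% in the 3 IgG libraries. The DN2 and IgG values were far apart, at 50.1% ± 11.5 (SD, n = 4) and 7.06% ± 1.30 (SD, n = 3). DHSs shared by all 5 lists separated the groups too, with a peak for 82.8% to 93.1% in DN2 and 55.6% to 60.8% in IgG libraries. DN2 lists were longer, with 57729 to 111582 peaks against 32952 to 37511 in IgG lists. For the 2010 lost DHSs the DN2 and IgG shares overlapped, at 13.2% ± 7.56 (SD, n = 4) and 17.1% ± 2.58 (SD, n = 3), with an exact permutation p = 0.457. The share of gained minus the share of lost DHSs, which takes out part of the effect of list length, was 36.9 ± 5.21 points in DN2 (SD, n = 4) and -10.0 ± 1.99 in IgG (SD, n = 3). The difference of 47.0 points had p = 0.0286 by a two-sided exact permutation test, its lowest possible value with 35 divisions. It was 19.9 points when DN1 replicate 1 was left out and 28.3 when DN1 replicate 2 was, with the same p.

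At equal list lengths the groups separated for both sets. Gained DHSs had a peak in 56.2% ± 4.53 of cases in DN2 (SD, n = 4) and 16.5% ± 3.48 in IgG (SD, n = 3), and lost DHSs in 17.3% ± 0.963 (SD, n = 4) and 28.5% ± 0.912 (SD, n = 3), each with exact permutation p = 0.0286. The lost DHSs of the equal-length lists, most of which had a lower-scoring DN1 peak, were thus less often open in DN2 than in IgG libraries, by 11.2 points. For the deposited losses the groups overlapped, as given above. Shared DHSs of the equal-length lists had a peak for 85.5% to 91.3% in DN2 and 73.9% to 79.1% in IgG libraries. The DN2 minus IgG difference in the gained-minus-lost share was 50.98 points at equal lengths, with exact permutation p = 0.0286. DN2 and IgG libraries differ in ligand, in IL-7 and in the surface marker sort described for DN2 cells, and these cannot be told apart. According to the methods DN1, DN2a and DN2b cells were sorted from cultures of each LSK replicate. The labels do not say which of these samples began from the same marrow, whereas the test treats libraries as exchangeable. A DN2a and a DN2b library may share an isolate, in which case the DN2 libraries are not all independent.

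**Figure D4:**
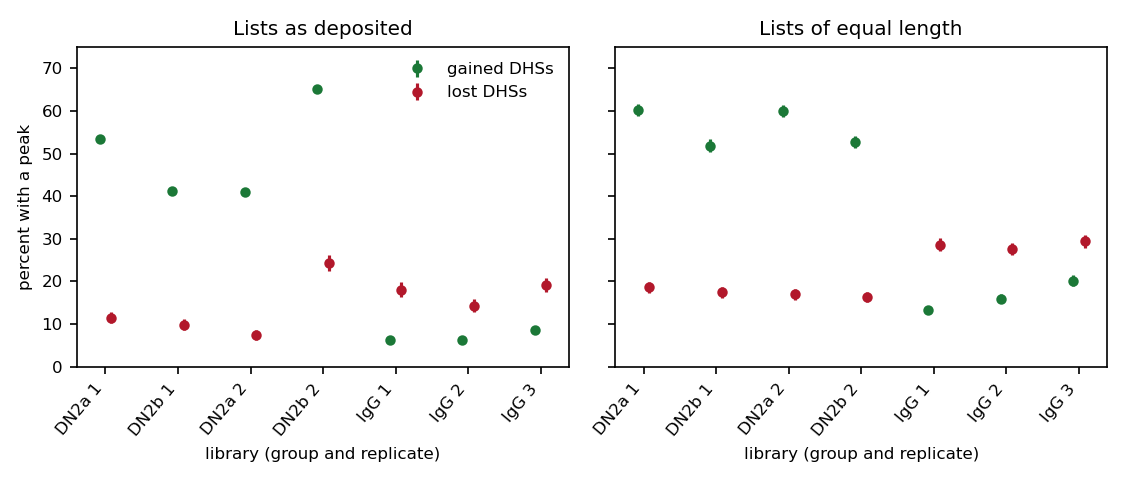
Points give the percent of gained (green) and lost (red) DHSs with a peak in each DN2 and IgG library, with 95% Wilson intervals, for deposited lists (left) and lists of equal length (right). Gained DHSs lie at 40.9% or more in every DN2 library and at 20.2% or less in every IgG library, in both panels.

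Part of the gained DHSs were retained and part transient, with different words. Of all gained DHSs, 3213 (24.1%) had a peak in all 4 DN2 and no IgG library, and 3014 (22.6%) in no DN2 and no IgG library, so that they were seen at DN1 alone. Among the DHSs shared by all 5 lists, these classes held 16.3% and 2.08%. At equal list lengths they held 32.9% and 18.9% of gained DHSs, beside 7.89% and 1.68% of shared ones. Most gained DHSs were in neither class, with a peak in some but not all DN2 libraries or in an IgG library. Among retained distal ones (n = 2978) the RUNX word was in 32.4% (30.7% to 34.1%), the TCF1/LEF1 word in 20.1% (18.7% to 21.6%), the GATA word in 13.0% (11.8% to 14.3%) and the PU.1 word in 14.2% (13.0% to 15.5%). Among transient ones (n = 2896) these shares were 15.8% (14.5% to 17.2%), 12.6% (11.4% to 13.9%), 7.25% (6.36% to 8.25%) and 32.5% (30.8% to 34.2%). RUNX, TCF1/LEF1 and GATA words were thus commoner in the retained and PU.1 words in the transient DHSs of the deposited lists. The RBPJ word was in 5.24% and 4.63%, with overlapping intervals. Transient DHSs were weaker, with a median DN1 percentile of 28.3 against 55.3. Under both list lengths 1940 distal DHSs were gained, of which 102 were transient and 1016 retained, with medians of 69.2 and 74.7. The RUNX shares there were 11.8% of the transient and 32.9% of the retained DHSs and the PU.1 shares 31.4% and 14.9%. The TCF1/LEF1 shares were 10.8% (6.13% to 18.3%) and 21.8% (19.3% to 24.4%), and the GATA shares 7.84% (4.03% to 14.7%) and 11.8% (9.97% to 13.9%), the latter with overlapping intervals.

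Lost DHSs were split by IgG peaks, and C/EBP and GATA words differed between the sets. Of the 2010, 1104 (54.9%) had no peak in any DN2 or IgG library, and 479 (23.8%) had one in at least 1 IgG library. The C/EBP word was in 28.9% (24.7% to 33.4%) of the 412 distal lost DHSs with an IgG peak and in 8.23% (6.69% to 10.1%) of the 1021 without any DN2 or IgG peak. The GATA word had the opposite order, 5.10% (3.36% to 7.66%) and 14.7% (12.7% to 17.0%). Under both list lengths the C/EBP shares were 23.6% of 178 and 8.74% of 286 DHSs. The Galnt6 and Gata2 sites printed above, with C/EBP words and peaks in 3 of 3 IgG libraries, belong to the first of these sets. The C/EBP difference was not particular to lost DHSs. In the deposited lists the word was in 8.82% of 1406 gained distal DHSs with an IgG peak and 4.94% of the 2896 transient ones. The GATA word was in 7.25% of both. The AP-1 word was in 15.3% and 9.50% of the corresponding lost sets and in 15.9% and 5.01% of these gained sets.

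**Figure D5:**
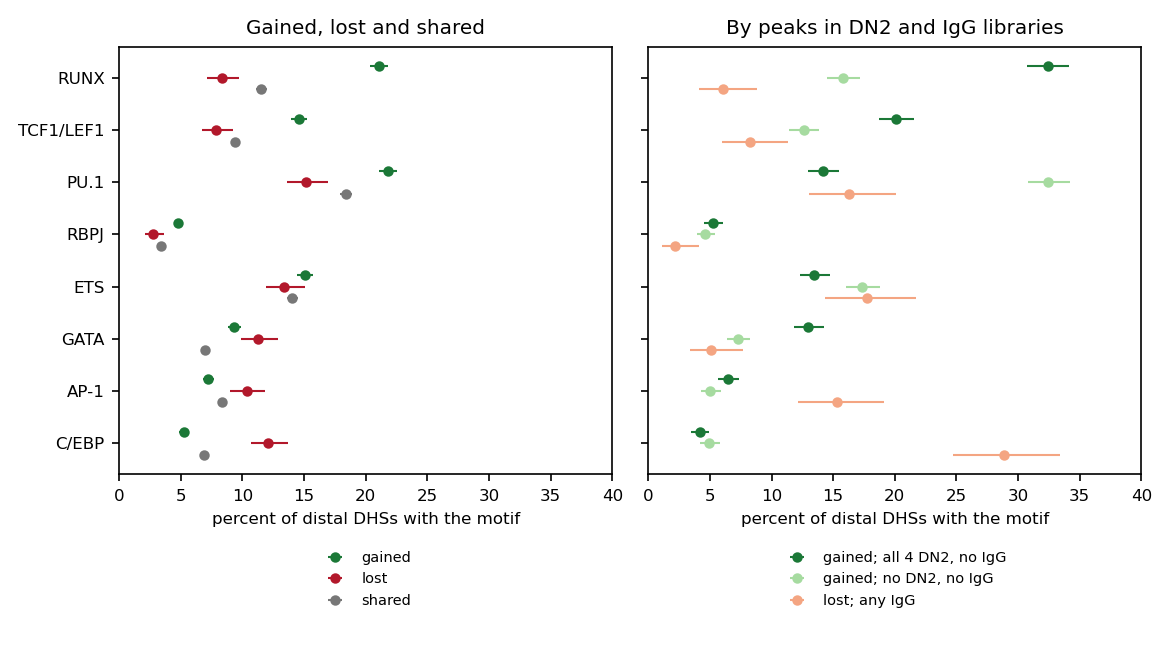
Points give the percent of distal DHSs with each word in their central 150 bp, with 95% Wilson intervals, for gained, lost and shared DHSs (left) and for gained DHSs found in all 4 DN2 and no IgG library, gained DHSs found in none of these, and lost DHSs with an IgG peak (right). In the right panel RUNX words are in 32.4% of retained and 15.8% of transient gained DHSs, and PU.1 words in 14.2% and 32.5%.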

How the data were processed

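DNase-seq peak lists of 3 LSK and 2 DN1 libraries were compared, with 4 DN2 and 3 IgG libraries used only to follow the resulting sites. The authors trimmed reads, aligned them to mm10 with bwa 0.7.12 and ran hotspot2 separately for each library (FDR 0.05). SAMtools 1.2 is listed in the submitters' processing notes. Each deposited peak is 150 bp wide and carries a score from 1 to 150 of unstated meaning, from which only ranks within a library were taken. Longer lists make gains more likely, and depth is unknown. Start sites came from GENCODE M21 (the study used an earlier release) and sequence from GRCm38. Python 3.11.15, numpy 2.4.6 and pandas 2.3.3 were used. Ties at the equal-length limit were broken at random with a fixed seed. Intervals are 95% Wilson intervals. The steps were tested on simulated lists. Regions with 30 or more merged DHSs within 50 kb were passed over when naming distal sites. Peaks on Y and M (0.0629%) were left out.

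The named items are the 12 gained and 12 lost promoters and 8 gained and 8 lost distal DHSs (over 2.5 kb from a start site) with the highest median percentile among those changed under both list lengths, the 10 genes with the most such DHSs, and changed members of 12 gene lists. The last of the gained promoters is not reported here. Where genes tied for the last place the text says so. The members, lists and words were chosen with earlier results of these data known. Counts of gained and lost sites carry no p-value. Alternatives were other list lengths, score limits, chromosomes, merging rules, promoter windows and start sites, and each library left out. The replicate libraries come from separate LSK isolates according to the methods.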

Additional observations from a re-analysis of the deposited data

How the results depend on the processing

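Counts of gained and lost DHSs depended on list length and on single libraries. At equal list lengths 4337 DHSs were gained and 3361 lost, with 121 promoters gained and 371 lost and a promoter share of lost DHSs of 14.8%. With the upper 50% of each list by score, 8129 DHSs were gained and 1174 lost, with promoter shares of 11.3% and 14.3%. The promoter share was 4.84% of gained and 9.05% of lost DHSs with a window of 500 bp, 14.6% and 15.5% with 2.5 kb, 12.3% and 15.8% with all protein-coding transcript starts, and 7.65% of gained DHSs when peaks within 150 bp were merged. Leaving out 1 library at a time gave 14917 to 35946 gained and 2359 to 5450 lost DHSs, 315 to 634 gained and 179 to 496 lost promoters, and promoter shares of 9.55% to 11.5% and 11.6% to 13.9%. The single libraries that moved a count by over 1.5 times were DN1 replicate 2 (35946 gained DHSs and 634 gained promoters without it), DN1 replicate 1 (5450 lost DHSs and 496 lost promoters), LSK replicate 1 (3148 lost DHSs) and LSK replicate 2 (3314 lost DHSs and 236 lost promoters). Removing a library loosens the definition, since fewer lists must agree.

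The DN2 minus IgG difference kept its direction in every alternative, from 19.9 to 48.8 points with 1 library left out. It was 19.9 points without DN1 replicate 1 and 28.3 without DN1 replicate 2. The exact permutation p stayed at 0.0286 except where a DN2 or IgG library was left out, when the smallest p possible was 0.1 or 0.0667 and was reached each time. The difference in peak number was 12461 to 39506 and that in promoter share of peaks -5.33 to -2.50 points with 1 library left out, and -0.374 at equal lengths. Chromosomes Y and M changed none of the counts. No paired analysis was possible because the labels give no replicate numbers. The replicate numbers printed here were assigned in the order of the samples within each group and only name libraries.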
